A study of Mus musculus with 10 samples.

Results

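The genes that bring pyruvate into mitochondria and set the activity of the pyruvate dehydrogenase complex were followed through 2 histone marks in cultured mouse retina. The set held 9 genes: Mpc1 and Mpc2 (the pyruvate carrier of the inner mitochondrial membrane), Pdhb and Dlat (subunits of the complex), Pdk1, Pdk2 and Pdk4 (kinases that switch the complex off) and Pdp1 and Pdp2 (phosphatases that switch it on again). All peaks that the deposited annotation assigned to these symbols were taken, which gave 18 of 108253 peaks, 10 of them promoter peaks, 5 intron peaks and 3 intergenic peaks. The total equals that of the paper's merged H3K18La peaks from retina at 3 postnatal ages, so these regions appear not to have been called in the cultures. A region absent from the set was counted for neither mark. At least 1 promoter peak was present for 8 of the 9 genes. Pdk4 had a single intergenic peak, at -77461 bp from its start, and no region assigned to it at the start itself.

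Retinas of wild-type C57BL/6J mice at postnatal day 28, freed of sclera and pigment epithelium, were cultured whole for 48 h with 5 mM or 25 mM glucose, and CUT&Tag was then run on 500000 dissociated cells per assay. CUT&Tag places a tagging enzyme at a modified histone through an antibody, so that the sequenced fragments lie where the mark is. Lactylation of lysine 18 of histone H3 (H3K18La) had 3 libraries at each glucose level, and acetylation at lysine 27 (H3K27Ac) had 2, all labelled as batch 1. The H3K27Ac libraries were taken as titled: the study's methods name an antibody against that mark, while the protocol in the labels names one against the repressive mark H3K9me3. The number of mice or retinas behind each library was not given in the sources used here, though the study's methods speak of biological replicates. P-values therefore refer to the spread between libraries, which may be technical. For H3K27Ac the main peak test took that spread from all peaks together, and not from each peak's own libraries. The tissue was bulk, so fewer marked cells of a type and less mark per cell cannot be told apart.

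Pyruvate stands where glycolysis meets the mitochondrion. It is either reduced to lactate in the cytosol or carried inward by the MPC1-MPC2 pair and turned into acetyl-CoA by the dehydrogenase complex, and phosphorylation of the complex by the PDK kinases favours the first fate. The adult retina, photoreceptors in particular, is known for sending much of its glucose to lactate even with oxygen present. Lactate and acetyl-CoA are in turn the sources of the lactyl and acetyl groups measured here on histones.

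The stretch before the transcription start is shown for 6 of the genes, 5 of them with a peak over the start and Pdk4 without one. The sequences were taken from RefSeq (build GRCm38.p6) and run 5′ to 3′ along the gene's strand from 250 bases before the RefSeq start, ending at the start or at the first base of an annotated exon. Capitals mark matches, on either strand, to the GC box GGGCGG, the E-box CACGTG, the hypoxia element ACGTG or the ETS motif CCGGAAG.
Mpc1, chr17:8283537-8283761, plus strand: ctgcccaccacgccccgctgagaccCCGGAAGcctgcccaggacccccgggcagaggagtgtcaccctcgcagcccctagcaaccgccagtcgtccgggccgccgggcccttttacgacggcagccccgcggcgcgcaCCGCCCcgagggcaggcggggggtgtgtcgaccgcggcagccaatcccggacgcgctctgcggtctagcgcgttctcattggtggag
Dlat, chr9:50659781-50660030, minus strand: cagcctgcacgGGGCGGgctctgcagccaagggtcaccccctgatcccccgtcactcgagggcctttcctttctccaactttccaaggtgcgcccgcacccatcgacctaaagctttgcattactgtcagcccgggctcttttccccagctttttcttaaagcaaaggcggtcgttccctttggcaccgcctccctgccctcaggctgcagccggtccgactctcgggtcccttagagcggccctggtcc
Pdk1, chr2:71872974-71873223, plus strand: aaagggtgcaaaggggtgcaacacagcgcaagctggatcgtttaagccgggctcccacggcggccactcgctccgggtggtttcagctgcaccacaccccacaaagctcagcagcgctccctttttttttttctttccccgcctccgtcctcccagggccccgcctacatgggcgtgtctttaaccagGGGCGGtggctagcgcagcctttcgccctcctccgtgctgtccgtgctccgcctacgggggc
Pdk2, chr11:95041372-95041621, minus strand: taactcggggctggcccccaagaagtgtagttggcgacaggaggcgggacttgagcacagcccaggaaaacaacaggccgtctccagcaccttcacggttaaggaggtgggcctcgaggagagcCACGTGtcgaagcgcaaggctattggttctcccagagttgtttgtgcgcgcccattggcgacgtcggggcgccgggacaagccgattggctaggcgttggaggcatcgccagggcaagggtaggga
Pdp2, chr8:104591222-104591450, plus strand: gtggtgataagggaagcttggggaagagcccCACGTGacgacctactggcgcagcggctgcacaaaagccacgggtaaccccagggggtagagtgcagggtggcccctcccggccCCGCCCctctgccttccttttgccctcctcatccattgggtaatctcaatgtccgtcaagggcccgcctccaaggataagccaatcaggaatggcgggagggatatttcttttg
Pdk4, chr6:5496310-5496528, minus strand: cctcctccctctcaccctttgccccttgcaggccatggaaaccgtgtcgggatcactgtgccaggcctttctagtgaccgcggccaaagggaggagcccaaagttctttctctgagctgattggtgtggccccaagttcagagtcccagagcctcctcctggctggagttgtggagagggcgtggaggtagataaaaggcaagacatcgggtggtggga

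RefSeq windows around the start, all of 1 length, were matched for 8 of the 9 genes, 11 windows in all, and Pdp1 had no entry. A GC box was present in 7 of the 11 windows, in Mpc1, Mpc2, Pdhb, Dlat, Pdk1 and Pdp2, and in 35.7% of 32851 windows of all genes. An E-box lay in the windows of Pdk2 and Pdp2, 126 and 219 bases before the start, and in 7.15% of all windows. The hypoxia element overlaps the E-box, was also found in the Pdhb window, 248 bases before the start, and was present in 19.6% of all windows. The ETS motif was found in the Mpc1 window alone, against 8.86% of all windows. The CRX motif GGATTA, the estrogen-related receptor motif AAGGTCA and the FOXO motif TGTTTAC matched none of the member windows and 7.06%, 4.72% and 3.65% of all windows. These matches describe letters in a window and not binding.

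The promoter peaks over coding starts varied in CpG. The Dlat promoter peak held 90.8 CpG per kb, Pdk1 80.9, Pdp1 80.8, Mpc2 78.9 and Mpc1 77.6, against a median of 49.0 over 17144 promoter peaks. Pdhb held 54.2 and Pdp2 50.7, close to that median, and Pdk2 lay below it with 45.8. In the introns of Mpc2 the peaks held 1.64 and 4.13 CpG per kb, below the median of 10.6 over 91109 other peaks. The intron peaks of Pdk1 (16.5) and Pdk2 (19.2 and 21.7) lay above it. The intergenic peaks held 6.73 and 13.5 at Pdhb and 9.65 at Pdk4.

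The reads behind each value were few. Levels are RPKM, in which reads are divided by peak length and by a denominator that each library has, and whole reads were recovered from them. The denominators ranged from 1358008 to 7424470 reads, and the 18 peaks together held as few as 27 H3K18La reads in a library at 5 mM, 155 to 236 at 25 mM, 323 and 567 H3K27Ac reads at 5 mM, and 1571 and 2274 at 25 mM. A count of 0 allows up to 3 reads, and every library lay at or under 3 reads in 5 member peaks for H3K18La and in 3 for H3K27Ac. Reads in all peaks made up 11.81% to 12.01% of the denominator for H3K18La at 5 mM, 31.2% to 35.0% at 25 mM, 21.1% and 31.5% for H3K27Ac at 5 mM, and 56.5% and 69.5% at 25 mM. This share rose with glucose over all peaks, 2.74 times for H3K18La and 2.39 times for H3K27Ac, and over promoter peaks, 2.80 and 2.85 times. The median difference over all peaks tested was 1.10 for H3K18La and 0.84 for H3K27Ac on the log2(RPKM + 0.5) scale, and it was 0.03 and -0.22 once each library was scaled to its reads in peaks. Differences are therefore also given relative to the median of all peaks tested. Among promoter peaks alone the median was 1.06 for H3K18La and 1.22 for H3K27Ac. An H3K27Ac promoter difference thus lies lower against other promoters than against all peaks.

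For H3K27Ac the promoters of both carrier genes, both enzyme subunits, Pdk2 and both phosphatases were higher at 25 mM glucose. The Pdk1 promoter did not pass the test, and Pdk4 had no promoter region in the peak set, so its promoter was not tested. For H3K18La the promoters of Mpc1, Pdk2 and Pdp2 were higher, as were intron peaks of Mpc2 and intergenic peaks upstream of Pdhb. No member peak was lower at 25 mM by the test in either mark. Peaks were tested with limma on log2(RPKM + 0.5) where the mean over the mark's libraries was at least 1 RPKM, with adjustment over all such peaks and a threshold of 0.05. Of the 18 member peaks, 13 reached that level for H3K18La and 16 for H3K27Ac, and 4 and 1 of these had a mean under 1 RPKM at 5 mM, so that they entered the test through their level at 25 mM. These were both Mpc2 intron peaks, the Dlat coding promoter and a Pdk2 intron peak for H3K18La, and a non-coding Dlat start for H3K27Ac.

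In the H3K18La comparison 7 of the 13 peaks tested were called higher, against 37.3% of 65614 peaks of the whole table, and 5 of 9 without the 4 peaks that entered through 25 mM. Among promoter peaks the count was 3 of 8 tested, against 33.3% of 12217. In the H3K27Ac comparison 10 of 16 were called higher, against 33.9% of 72442 peaks, and among promoter peaks 7 of 10, against 57.0% of 15143. Every 25 mM library lay above every 5 mM library in 10 of the 13 peaks for H3K18La, where 53.4% of all peaks tested did so, and in 14 of the 16 for H3K27Ac, where 69.3% did. Without the 4 peaks that entered through 25 mM, 6 of 9 stood apart for H3K18La. One of the 16, at a non-coding Dlat start, held at most 3 reads in every library, and without it 10 of 15 were called, 7 of 9 among promoters, and 13 of 15 stood apart. Whether these shares differ from those of the table was not tested. Without the level filter the fitted differences were the same and fewer passed, 4 for H3K18La and 0 for H3K27Ac, where adjusted p-values of the 10 ran from 0.125 to 0.182 (limma). That fit called 18390 and 0 peaks of the whole table, with 31013 at an unadjusted p under 0.05 for H3K27Ac. The 3 H3K18La calls lost were the Mpc1 promoter, the weaker Mpc2 intron peak and the nearer Pdhb intergenic peak (limma, adjusted p = 0.0632, 0.0545 and 0.0834). Leaving out either H3K27Ac library at 25 mM took the count from 10 to 0, and that of the whole table from 24698 to 10 without replicate 1 and 980 without replicate 2, with the lone library assumed to vary like the others. The differences of the 10 peaks stayed positive there, from 0.84 to 2.17 and from 1.18 to 2.47, beside 1.07 to 1.92 with all libraries. Leaving out replicate 1 at 5 mM gave 6, and 16385 in the whole table, with the calls at the weaker Mpc2 intron peak, the farther Pdhb intergenic peak, the stronger Pdk2 intron peak and the Pdp2 promoter lost (0.86, 0.94, 0.83 and 0.94). With each library scaled to its reads in peaks, or centred on its median, no member peak was called in either mark. The scaled fit called 0 peaks of the whole table in limma, with 7636 for H3K18La and 12491 for H3K27Ac at an unadjusted p under 0.05.

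**Figure D1:**
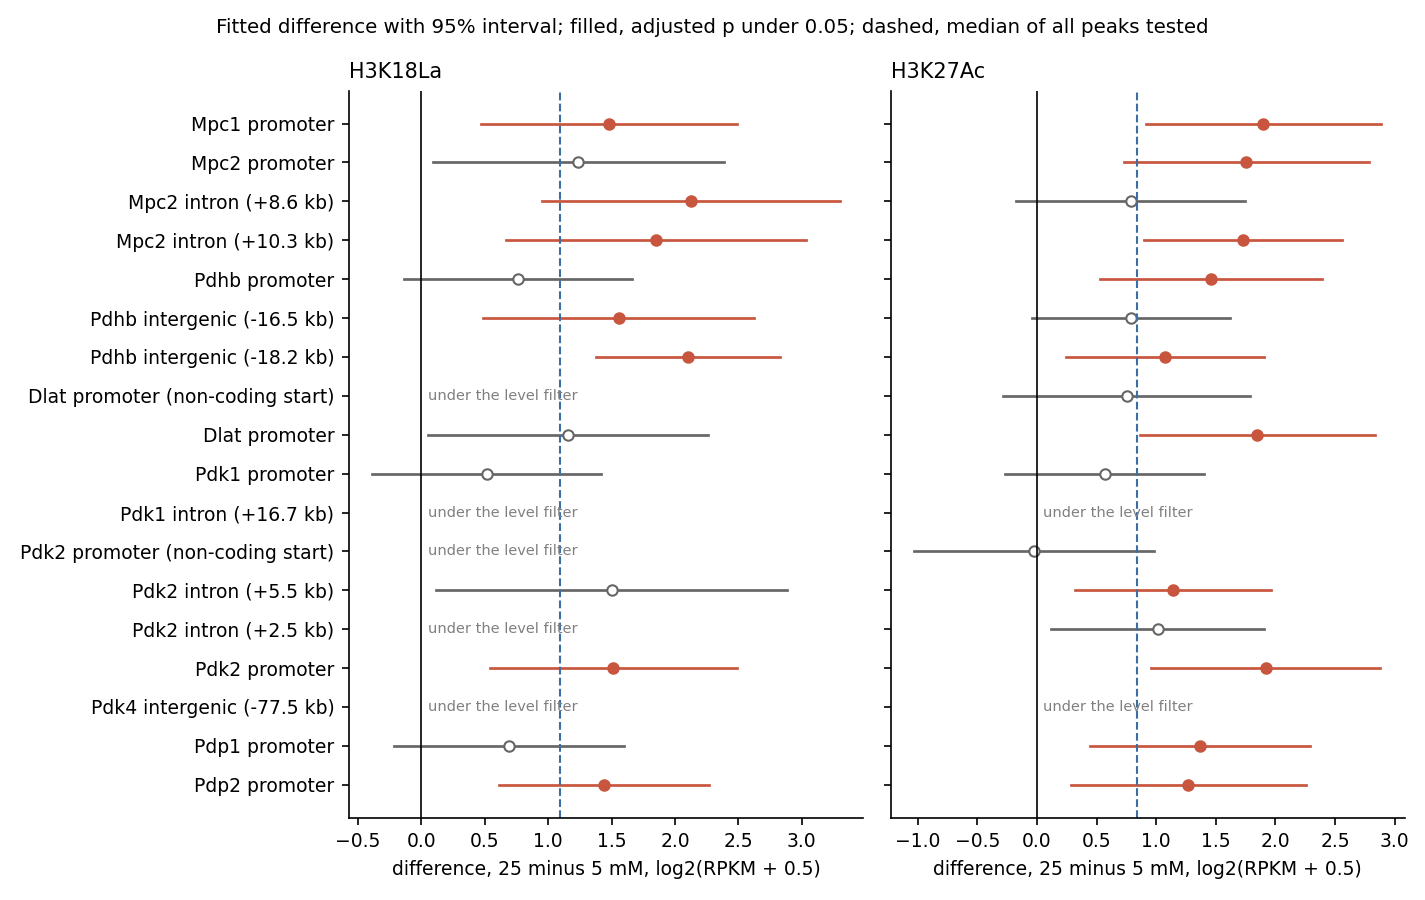
Fitted difference between 25 mM and 5 mM glucose on the log2(RPKM + 0.5) scale for the member peaks tested, 13 for H3K18La and 16 for H3K27Ac (points, with 95% intervals from limma), H3K18La on the left and H3K27Ac on the right. Filled points passed an adjusted p of 0.05, dashed lines mark the median of all peaks tested, 1.10 and 0.84, and the Pdk1 promoter lies left of both.

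Mpc2 had the highest H3K27Ac promoter level of the set in both 25 mM libraries, while Mpc1 came second in replicate 1 and below Dlat, Pdk2 and Pdp2 in replicate 2. The Mpc1 promoter peak (ENSMUSG00000023861, chr17:8282855-8284620) covers the coding start. Its H3K18La level was 1.342, 1.42 and 0.417 RPKM at 5 mM and 5.76, 2.51 and 3.25 RPKM at 25 mM. Groups did not overlap, and replicate 1 at 25 mM was the highest library. The fitted difference was 1.48 ± 0.46 (SE) on the log2(RPKM + 0.5) scale, 0.38 above the median of all peaks tested (limma, adjusted p = 0.0270), and it did not pass without replicate 3 at 5 mM or without replicate 1 or 3 at 25 mM (1.14, 1.18 and 1.55). H3K27Ac at the same promoter measured 6.15 and 6.84 RPKM at 5 mM and 38.2 and 17.1 RPKM at 25 mM. The 2 libraries at 25 mM lay far apart, both above the 5 mM pair, and the difference was 1.90 ± 0.50 (SE), 1.06 above the median (limma, adjusted p = 0.00307).

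Mpc2 (ENSMUSG00000026568) had the promoter with the highest mean level over the 10 libraries, chr1:165459898-165461747, which also covers the coding start of Dcaf6. The mark there cannot be divided between these genes. H3K18La was 4.87, 1.88 and 0.796 RPKM at 5 mM and 9.35, 5.05 and 3.46 RPKM at 25 mM. Replicate 1 at 5 mM lay within the 25 mM range, and the difference of 1.24 ± 0.52 (SE) did not pass (limma, adjusted p = 0.0816), but did without replicate 1 at 5 mM (1.77). H3K27Ac rose from 9.75 and 10.3 RPKM to 43.5 and 28.1 RPKM, a difference of 1.76 ± 0.52 (SE) and 0.92 above the median (limma, adjusted p = 0.00737).

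The introns of Mpc2 carried 2 further peaks, both in intron 1 of 4. The stronger, chr1:165469634-165470244, lies 8597 bp past the start. H3K18La there was 1.55, 1.26 and 0 RPKM at 5 mM, from 2, 4 and 0 reads, and 4.16, 6.04 and 4.41 RPKM at 25 mM. The groups stood apart, by 2.12 ± 0.54 (SE) on the log2(RPKM + 0.5) scale (limma, adjusted p = 0.0106), and 1.48 without replicate 3 at 5 mM, the library with 0 reads. The peak reached the level filter through its 25 mM libraries, as did the weaker intron peak, and neither passed with a pseudocount of 0.1 (limma, adjusted p = 0.0503 and 0.0620). H3K27Ac was 6.06 and 8.96 RPKM at 5 mM and 12.3 and 13.9 RPKM at 25 mM, a difference of 0.78 ± 0.49 (SE) that did not pass (limma, adjusted p = 0.193). The weaker intron peak, chr1:165471310-165472036, passed the test in both marks, though in neither without the level filter. Its H3K18La level went from 0.652, 0.796 and 0 RPKM to 2.10, 2.37 and 4.17 RPKM, from 4 to 19 reads over the 3 libraries, a read ratio of 4.57 with a 95% counting interval of 1.52 to 18.5 (limma, adjusted p = 0.0205). It did not pass without replicate 2 or 3 at 25 mM. H3K27Ac there went from 0.636 and 3.32 RPKM to 4.59 and 8.89 RPKM, a difference of 1.73 (limma, adjusted p = 0.00145) that was 0.86 without replicate 1 at 5 mM, which held 2 reads (limma, adjusted p = 0.109).

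**Figure D2:**
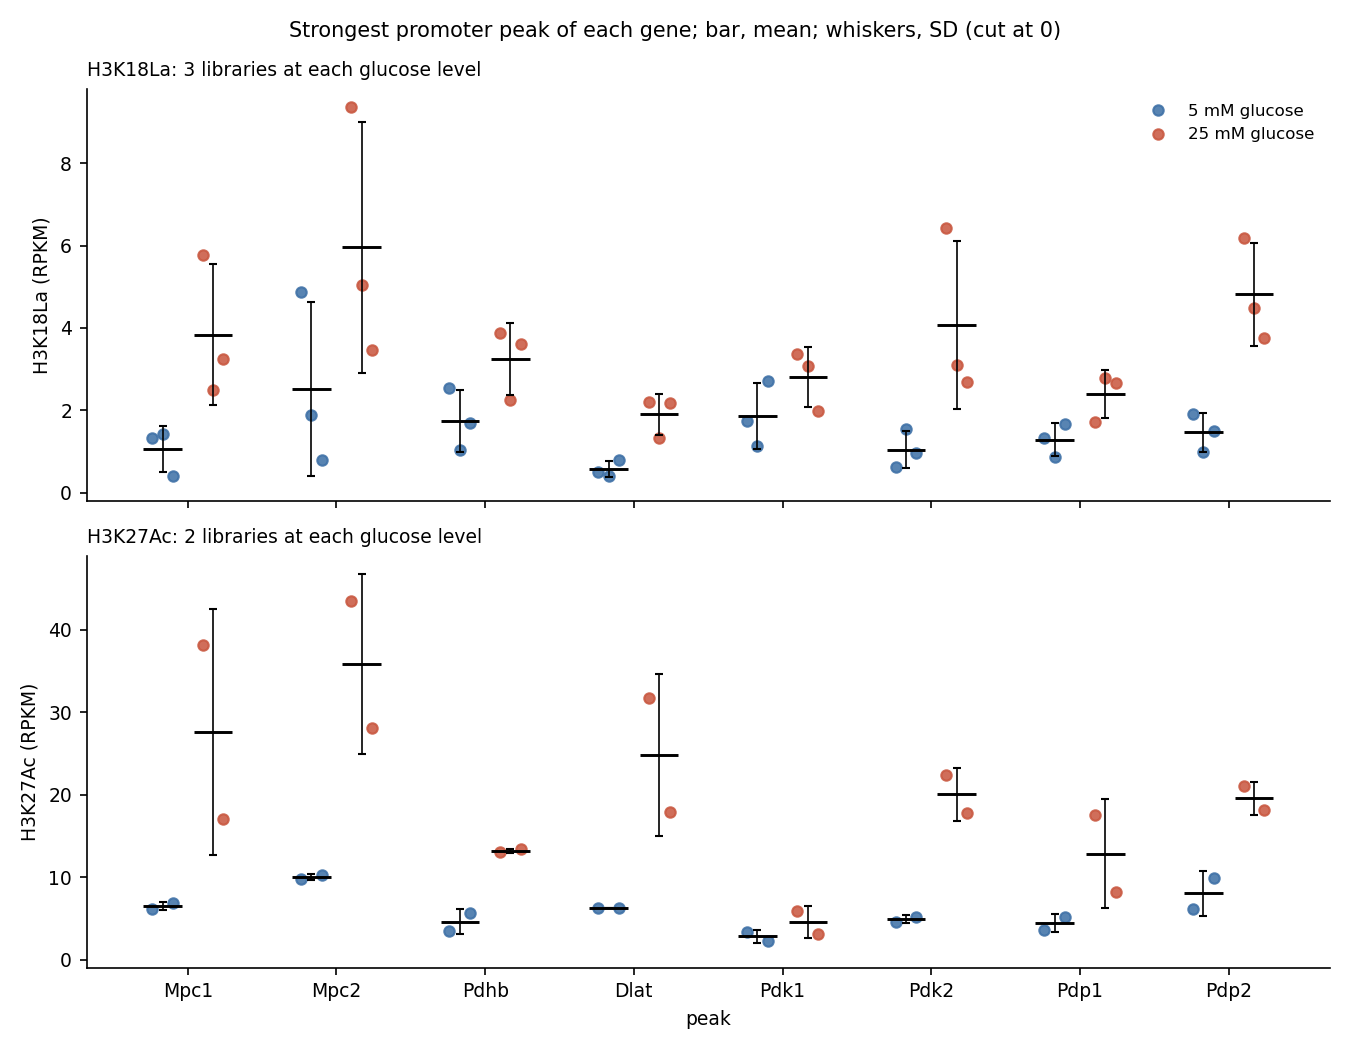
RPKM of the strongest promoter peak of each of the 8 genes that had one, by library, for H3K18La (top, 3 libraries per glucose level) and H3K27Ac (bottom, 2 per level), with bars for means and whiskers for SD. H3K27Ac at the Mpc2 promoter reached 43.5 and 28.1 RPKM at 25 mM, while Pdk1 stayed at 5.93 and 3.17 RPKM.

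Pdhb encodes the beta subunit of the first enzyme of the complex, the one that decarboxylates pyruvate. At its promoter (ENSMUSG00000021748, chr14:8172510-8173819) H3K18La was 2.53, 1.03 and 1.69 RPKM at 5 mM and 3.88, 2.25 and 3.60 RPKM at 25 mM. The groups overlapped, and the difference of 0.76 ± 0.41 (SE) did not pass (limma, adjusted p = 0.157). H3K27Ac was 3.53 and 5.65 RPKM at 5 mM and 13.1 and 13.4 RPKM at 25 mM. The 25 mM libraries lay close together. The difference of 1.46 ± 0.48 (SE) passed (limma, adjusted p = 0.0130).

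Upstream of Pdhb, 2 intergenic peaks were annotated to the gene as its nearest. The peak at chr14:8191237-8192494, at -18212 bp from the annotated start, had the smallest standard error among the H3K18La calls. It measured 1.13, 1.38 and 1.17 RPKM at 5 mM and 7.28, 7.04 and 6.43 RPKM at 25 mM. The difference was 2.10 ± 0.33 (SE), 1.01 above the median of all peaks tested (limma, adjusted p = 0.00102), and it was called whichever library was left out. H3K27Ac at this peak went from 1.84 and 2.30 RPKM to 5.30 and 4.50 RPKM (difference 1.07 ± 0.42, SE; limma, adjusted p = 0.0373). Its neighbour at chr14:8189499-8190241, at -16474 bp from the start, held 1.28, 1.04 and 1.98 RPKM of H3K18La at 5 mM and 2.05, 7.28 and 8.17 RPKM at 25 mM. Replicate 1 at 25 mM, with 3 reads, lay just above the 5 mM group (difference 1.56 ± 0.49, SE; limma, adjusted p = 0.0280), and the call held only without replicate 3 at 5 mM or replicate 1 at 25 mM among the 6 fits that left out a library. H3K27Ac there was 2.18 and 2.60 RPKM at 5 mM and 3.56 and 5.62 RPKM at 25 mM and did not pass (limma, adjusted p = 0.127). Whether these peaks act on Pdhb was not measured.

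Dlat encodes the second enzyme of the complex, which hands the acetyl group to coenzyme A. Its coding promoter (ENSMUSG00000000168, chr9:50659146-50660070) had little H3K18La and reached the level filter through its 25 mM libraries, with 1, 2 and 1 reads at 5 mM and 4, 5 and 6 reads at 25 mM. In RPKM the levels were 0.513, 0.417 and 0.796 at 5 mM and 2.20, 1.33 and 2.19 at 25 mM. The groups did not overlap, the read ratio was 3.61 with a 95% counting interval of 1.15 to 14.9, and the test was not passed (limma, adjusted p = 0.0895). H3K27Ac was plentiful at the same peak, with 6.25 and 6.27 RPKM at 5 mM and 31.7 and 17.9 RPKM at 25 mM, a difference of 1.85 ± 0.50 (SE) and 1.01 above the median (limma, adjusted p = 0.00365). Among all promoter peaks this level ranked at the 89.8th percentile for H3K27Ac at 25 mM and at the 48.9th for H3K18La. A second Dlat peak at the start of a non-coding transcript, chr9:50647616-50647860, held at most 2 H3K18La reads in a library and was not tested for that mark. It held 1 and 1 H3K27Ac reads at 5 mM and 3 and 3 at 25 mM, all within the 3 reads that a count of 0 allows. The peak reached the level filter for H3K27Ac through its 25 mM libraries and did not pass (limma, adjusted p = 0.252), so no difference was detectable there at this depth.

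Among the kinases, the Pdk2 promoter passed in both marks and the Pdk1 promoter in neither, a difference between genes that was not tested. Pdk2, the widely expressed member of the family, had a promoter peak (ENSMUSG00000038967, chr11:95040261-95041766) with 0.630, 1.54 and 0.978 RPKM of H3K18La at 5 mM and 6.42, 3.103 and 2.69 RPKM at 25 mM. Groups did not overlap, with replicate 1 at 25 mM the highest, and the difference was 1.52 ± 0.44 (SE; limma, adjusted p = 0.0209), not passing without replicate 1 at 5 mM or replicate 1 at 25 mM (1.31 and 1.17). H3K27Ac rose from 4.61 and 5.24 RPKM to 22.3 and 17.8 RPKM. That difference of 1.92 ± 0.49 (SE) lay 1.08 above the median (limma, adjusted p = 0.00221). Intron 2 of 10 held 2 further peaks. In the stronger, chr11:95034755-95035848, H3K18La was 0, 0.529 and 0.673 RPKM at 5 mM and 2.79, 0.899 and 2.47 RPKM at 25 mM, from 4 and 18 reads, and did not pass (limma, adjusted p = 0.0801). H3K27Ac in that peak rose from 1.27 and 2.21 RPKM to 4.57 and 4.06 RPKM (difference 1.14 ± 0.42, SE; limma, adjusted p = 0.0268).

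The weaker Pdk2 intron peak, chr11:95038330-95038836, held at most 1 H3K18La read in a library, and its H3K27Ac level of 0.456 and 1.91 RPKM at 5 mM and 2.47 and 2.66 RPKM at 25 mM did not pass (limma, adjusted p = 0.0676). A peak at the start of a processed Pdk2 transcript, chr11:95028884-95029494, held 5 and 3 H3K27Ac reads at 5 mM and 6 and 5 at 25 mM. Its level was 1.89 and 0.791 RPKM at 5 mM and 1.37 and 1.10 RPKM at 25 mM, overlapping groups with a difference of -0.02 ± 0.51 (SE) and a 95% interval of -1.03 to 0.99 (limma, adjusted p = 0.977). The sign of that difference changed when replicate 1 at 5 mM or replicate 2 at 25 mM was left out.

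Pdk1, the kinase known as a target of the hypoxia-inducible factor, passed the test in neither mark. At its promoter (ENSMUSG00000006494, chr2:71872705-71874064) H3K18La was 1.74, 1.13 and 2.71 RPKM at 5 mM and 3.37, 3.07 and 1.98 RPKM at 25 mM. The groups overlapped, and the difference of 0.51 ± 0.41 (SE) lay 0.58 below the median of all peaks tested, with a 95% interval of -0.39 to 1.42 (limma, adjusted p = 0.327). H3K27Ac was 3.401 and 2.25 RPKM at 5 mM and 5.93 and 3.17 RPKM at 25 mM, again overlapping. Its difference of 0.57 ± 0.43 (SE) lay 0.27 below the median, with an interval of -0.27 to 1.403 (limma, adjusted p = 0.283). Both differences turned negative, to -0.66 and -0.56, when libraries were scaled to their reads in peaks, and neither passed there. In level, the Pdk1 promoter went from the 87.1st percentile of promoter peaks to the 68.5th for H3K18La and from the 46.5th to the 38.4th for H3K27Ac. The intron peak of Pdk1, chr2:71889930-71890353 in intron 8 of 10, held at most 2 H3K18La reads and at most 3 H3K27Ac reads in a library and is not compared.

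Pdk4, the kinase that fasting and fatty acids are known to induce, had no region at its start in this peak set, so its promoter was measured in neither mark. Its only peak was nearly without signal. Its intergenic peak (ENSMUSG00000019577, chr6:5573770-5574391) held 1, 0 and 0 H3K18La reads at 5 mM and 2, 1 and 1 at 25 mM. H3K27Ac gave 1 and 1 reads at 5 mM and 2 and 0 at 25 mM. Every library lay within the 3 reads that a count of 0 allows, so no difference was detectable at this depth. The RefSeq window at the Pdk4 start held 12 CpG, above the median of 7 over all windows.

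**Figure D3:**
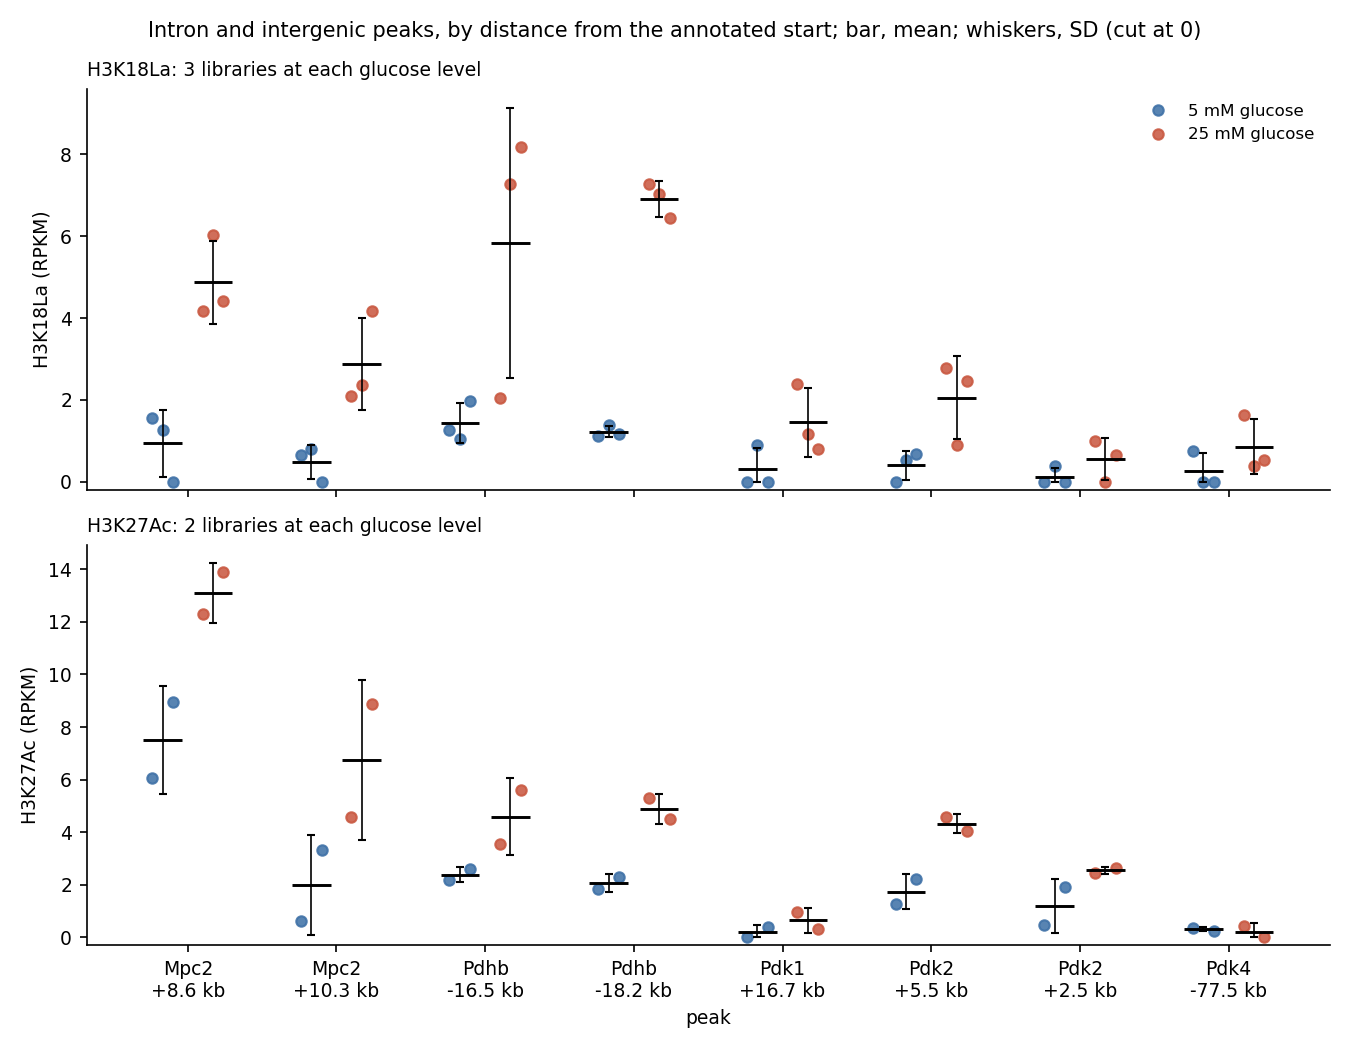
RPKM of the 8 intron and intergenic peaks by library, labelled by distance from the annotated start, for H3K18La (top, 3 libraries per glucose level) and H3K27Ac (bottom, 2 per level), with bars for means and whiskers for SD. The Pdhb peak at -18212 bp lay between 6.43 and 7.28 RPKM of H3K18La at 25 mM and between 1.13 and 1.38 RPKM at 5 mM, and the Pdk4 peak held at most 1.64 RPKM, from 2 reads.

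The phosphatase genes Pdp1 and Pdp2 had 1 promoter peak each. Pdp1, whose enzyme is stimulated by calcium, shares its peak (ENSMUSG00000049225, chr4:11965582-11967351) with a start of 1700123M08Rik. H3K18La was 1.339, 0.872 and 1.66 RPKM at 5 mM and 1.72, 2.78 and 2.67 RPKM at 25 mM. The groups touched without overlapping, and the difference of 0.69 ± 0.41 (SE) did not pass (limma, adjusted p = 0.197). H3K27Ac rose from 3.66 and 5.19 RPKM to 17.5 and 8.22 RPKM, with a wide gap between the 25 mM libraries (difference 1.37 ± 0.47, SE; limma, adjusted p = 0.0185).

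The Pdp2 promoter (ENSMUSG00000048371, chr8:104591081-104592066) was called in both marks. H3K18La was 1.92, 0.978 and 1.49 RPKM at 5 mM and 6.19, 4.49 and 3.76 RPKM at 25 mM. The groups were well apart, the difference was 1.44 ± 0.38 (SE; limma, adjusted p = 0.0129), and it was called with any 1 library left out, at limma adjusted p-values up to 0.0496. H3K27Ac rose from 6.10 and 9.96 RPKM to 21.0 and 18.2 RPKM (difference 1.27 ± 0.50, SE; limma, adjusted p = 0.0380).

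The marks were also compared directly through a glucose by mark interaction over all 10 libraries. No member peak passed, 0 of 14 tested, and 0% of 72467 peaks of the whole table did, with 0 member peaks and 3650 peaks in all at an unadjusted p under 0.05 in limma. The H3K27Ac difference minus the H3K18La difference ranged from -1.34 at the stronger Mpc2 intron peak to 0.70 at the Pdhb promoter. Values lay above 0 in 7 of the 9 promoter peaks tested, against 59.3% of 14815 promoter peaks of the table, and in 0 of the 5 other peaks, against 31.9% of 57652. At the Pdhb peak at -18212 bp the value was -1.03 with a 95% interval of -2.14 to 0.07, and at the stronger Mpc2 intron peak the interval was -2.92 to 0.25 (limma, adjusted p = 0.903 for both).

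The balance between promoter and other peaks was then taken within each library, as the log2 ratio of reads in the 10 promoter peaks to reads in the 8 others. For H3K18La it was 2.42, 1.55 and 2.14 at 5 mM and 1.52, 0.78 and 0.54 at 25 mM. The means were 2.03 ± 0.44 (SD, n = 3) and 0.95 ± 0.51 (SD, n = 3), and replicate 2 at 5 mM lay only just above replicate 1 at 25 mM. The exact two-sided permutation p was 0.1, the smallest that 3 against 3 libraries allow. Over all peaks of the table the same ratio moved by 0.02, from -2.03 to -2.00. Among the 8 other member peaks, the 2 at Pdhb held 8 and 14 H3K18La reads at 5 mM and 43 and 78 at 25 mM. No other of the 8 held more than 6 and 28, so the member ratio rests largely on few reads at 1 locus. For H3K27Ac the ratio was 2.70 and 2.19 at 5 mM and 3.41 and 2.56 at 25 mM. These groups overlapped, with an exact permutation p of 0.667, and the ratio over all peaks rose by 0.37.

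**Figure D4:**
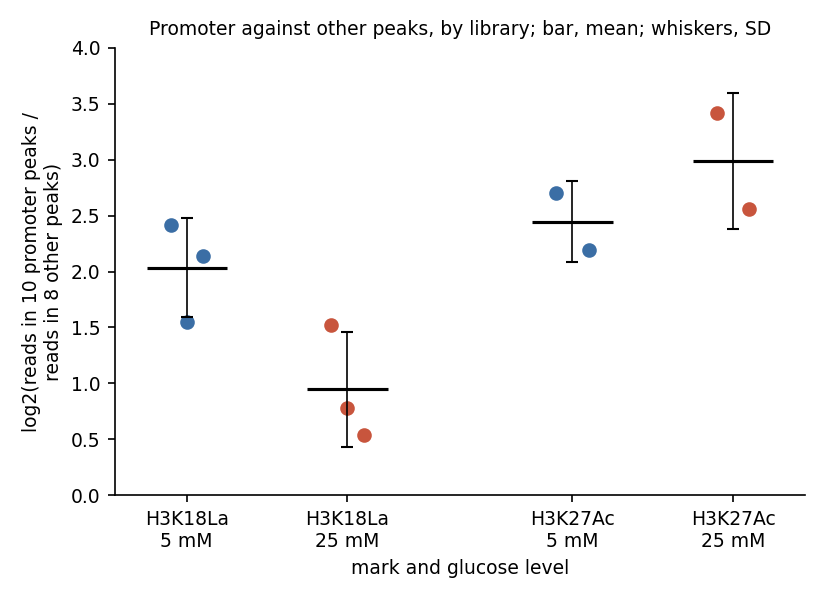
Log2 ratio of reads in the 10 promoter peaks to reads in the 8 other peaks, by library, mark and glucose level, with bars for means and whiskers for SD. H3K18La libraries at 25 mM (0.54 to 1.52) lay below those at 5 mM (1.55 to 2.42), and the H3K27Ac groups overlapped.

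Reads summed over all 18 peaks gave 27.02, 19.7 and 19.9 RPM of H3K18La (reads scaled to the same denominators, without peak length) at 5 mM and 78.9, 58.0 and 58.0 at 25 mM. The means, 22.2 ± 4.18 RPM (SD, n = 3) and 65.0 ± 12.03 RPM (SD, n = 3), stood in a ratio of 2.93 (exact two-sided permutation p = 0.1, the smallest possible), beside 2.74 for the sum over all peaks and 2.80 for all promoter peaks. H3K27Ac gave 74.7 and 91.3 at 5 mM and 316 and 212 at 25 mM, a ratio of 3.18 (exact permutation p = 0.3333, the smallest that 2 against 2 libraries allow), beside 2.39 for all peaks and 2.85 for all promoter peaks. Scaled to reads in all peaks instead, the ratios were 1.07 for H3K18La, with overlapping groups (exact permutation p = 0.5), and 1.29 for H3K27Ac, with groups apart (exact permutation p = 0.3333).

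By gene, the summed H3K18La signal was apart between groups in 7 of 9 genes, against 46.6% of 25400 genes with a peak, and the H3K27Ac signal in 7 of 9, against 65.6%. Pdk1 and Pdk4 were the exceptions in both marks. The ratios among the other genes ran from 1.85 for Pdp1 to 3.62 for Mpc1 in H3K18La and from 2.44 for Pdp2 to 4.25 for Mpc1 in H3K27Ac. Single libraries moved 3 of these ratios by over 1.5 times, in a check without each library that was added after the data were seen. Without replicate 1 at 25 mM the H3K27Ac ratio was 2.63 for Mpc1 and 1.86 for Pdp1, which was then the lowest of the 7, while Pdk2 was the highest. Without replicate 1 at 5 mM the H3K18La ratio of Mpc2 went from 2.89 to 5.11, above that of Mpc1 at 4.18. Pdk1 had ratios of 1.67 and 1.65. Of 16 exact tests over genes and marks, the lowest adjusted p was 0.229, in a design whose raw p cannot go below 0.1 and 0.3333, and Pdk4 was left out because libraries held 0 reads. Scaled to reads in all peaks, the Pdk1 sum was 19.7, 16.2 and 31.2 RPM at 5 mM and 16.0, 14.8 and 9.73 RPM at 25 mM for H3K18La, without overlap (exact permutation p = 0.1), and 21.9 and 10.2 RPM at 5 mM and 12.2 and 7.87 RPM at 25 mM for H3K27Ac, with overlap. On that scale 0 of 9 genes for H3K18La and 4 of 9 for H3K27Ac had all 25 mM libraries above all 5 mM libraries, against 6.13% and 17.2% of all genes.

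**Figure D5:**
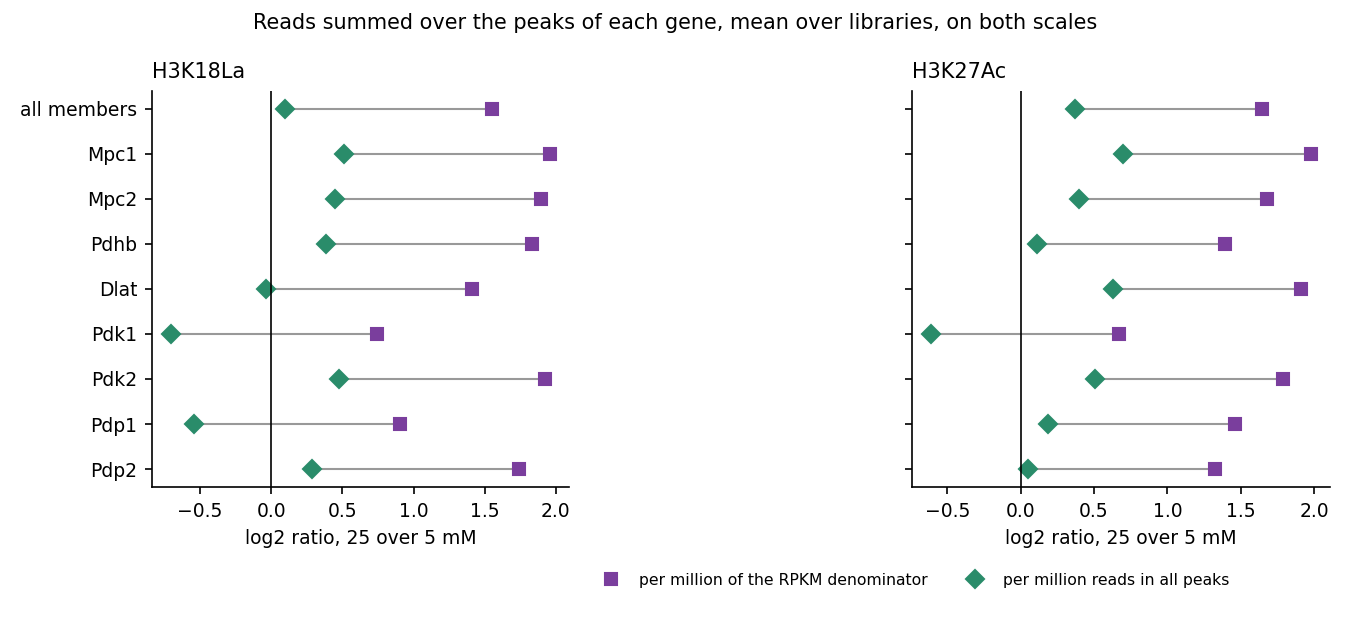
Log2 ratio, 25 mM over 5 mM, of reads summed over each gene's peaks (difference between the mean log2 values of the libraries) for H3K18La and H3K27Ac, scaled to the RPKM denominators (squares) and to reads in all peaks (diamonds), with Pdk4 not drawn because libraries held 0 reads. Pdk1 lies below 0 on the second scale in both marks, at -0.70 for H3K18La and -0.61 for H3K27Ac.

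Levels of the 8 strongest promoters followed each other over the 10 libraries, which span 2 marks and 2 glucose levels that all promoters share. Pearson's r of log2(RPKM + 0.5) between pairs of them had a median of 0.92 and a range of 0.69 to 0.97 over 28 pairs. The promoters most like that of Mpc2 were those of Ube2cbp (r = 0.99) and Prkrip1 (r = 0.99), among 14558 genes of which 29.2% had an r above 0.9.

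Other genes of the same metabolism were read through their strongest promoter peak. Their counts stand beside the 33.3% of promoter peaks called higher for H3K18La and the 57.0% for H3K27Ac, and none of these calls held with libraries scaled to their reads in peaks, where no peak of the table was called. Of the remaining genes of the complex and carrier, Pdha1, Dld and Pdk3 had a promoter peak and Pdhx, Pdpr and Mpc1l had none. Pdk3, another kinase of the complex, rose in both marks, from 0.852 ± 0.885 to 4.00 ± 1.68 RPKM (SD, n = 3) for H3K18La (limma, adjusted p = 0.0210) and from 4.44 ± 1.11 to 19.1 ± 7.03 RPKM (SD, n = 2) for H3K27Ac (limma, adjusted p = 0.00163). Dld, the third enzyme of the complex, rose for H3K27Ac alone by this test (limma, adjusted p = 0.0145), and Pdha1, the alpha subunit of the first enzyme, passed in neither mark. Dlat needs an attached lipoyl group, made and placed by Lias, Lipt1 and Lipt2, and Nfu1 and Bola3 act in supplying iron-sulfur clusters to Lias. Glrx5, also on this list, had no promoter peak. Among the 5 genes with one, 1 of 3 tested rose for H3K18La (Bola3) and 1 of 5 for H3K27Ac (Lipt1), with median differences of 1.15 and 1.06. Pdk3 and Bola3 averaged under 1 RPKM of H3K18La at 5 mM and entered that test through their 25 mM level.

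Of 9 other enzymes that use or make pyruvate, 4 rose for H3K18La (Ldha, Ldhb, Pkm and Me1) and 6 for H3K27Ac, with medians of 1.11 and 1.22. Ldha, the lactate dehydrogenase subunit that favours lactate, went from 0.789 ± 0.501 to 5.61 ± 3.59 RPKM of H3K18La (SD, n = 3; limma, adjusted p = 0.00685) and from 5.77 ± 3.68 to 30.3 ± 15.0 RPKM of H3K27Ac (SD, n = 2). In the citric acid cycle, where Dlst and Mdh2 had no promoter peak, 1 of 6 tested rose for H3K18La (Suclg1) and 6 of 8 for H3K27Ac, with medians of 0.78 and 1.53. Of 8 regulators known to act on Pdk4, 6 rose for H3K18La and 8 for H3K27Ac, with medians of 1.59 and 1.39. Among the H3K18La calls, Ldha, Esrrg, Foxo1 and Foxo3 averaged under 1 RPKM at 5 mM and entered the test through their 25 mM level. The medians of all promoter peaks tested were 1.06 and 1.22. Ppargc1a, a coactivator of mitochondrial genes, went from 5.40 ± 1.51 to 17.5 ± 3.97 RPKM of H3K18La (SD, n = 3; limma, adjusted p = 0.00129).

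Cell type markers were read through their promoters too, against the same 33.3% and 57.0% of all promoter peaks. The rod markers Gnat1, Nrl, Pde6b, Sag and Cnga1 were called higher in both marks, 5 of 5, with median differences of 2.48 and 2.11. Their summed promoter level ranged from 7.12 to 9.98 RPKM at 5 mM and from 34.8 to 91.9 RPKM at 25 mM for H3K18La, and was 30.9 and 57.3 RPKM at 5 mM and 148.1 and 268 RPKM at 25 mM for H3K27Ac. Cone markers were called in 0 of 3 tested for H3K18La and 1 of 2 for H3K27Ac, amacrine markers in 1 of 2 for each mark, and bipolar and ganglion markers, not tested for H3K18La, in 3 of 3 and 1 of 1 for H3K27Ac. Gnat1 for H3K18La and Grm6, Trpm1 and Thy1 for H3K27Ac averaged under 1 RPKM at 5 mM and entered the test through their 25 mM level. Of 3 Muller glia markers with a promoter peak, 0 were called for H3K18La and 2 for H3K27Ac. Endothelial markers (2 of 3 with a promoter peak) were called in neither mark, with medians of -0.72 and -0.92. Best1 and Rgr of the pigment epithelium were tested in both marks with 1 of 2 called in each, and C1qa of microglia was not called for H3K18La. Rpe65 and Lrat of the pigment epithelium, Cx3cr1, P2ry12 and Csf1r of microglia, and all 3 liver genes had no promoter peak. The part of the rod marker differences in the member results was not tested.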

How the data were processed

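Per the study's methods, which describe the H3K18La pipeline, the authors mapped read pairs to GRCm38 with nf-core/cutandrun, called peaks with MACS, annotated them with ChIPseeker 1.34.1 (promoters from -1000 to 500 bp of a start) and counted reads over merged peaks with csaw. The deposited values are RPKM, over as many regions as the paper gives for its merged H3K18La peaks of developing retina. A second deposited table holds the authors' own H3K18La comparison (fold changes, p-values, group means) made with edgeR 3.40.2 and was not used. Whether window-based normalization factors enter the RPKM denominators was not stated, so they are not called depth. The methods name protein A-Tn5 and an H3K27Ac antibody, the labels' protocol pA-MNase and an H3K9me3 antibody, and libraries were taken as titled. All values came out as whole reads within 0.05.

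Groups and replicate numbers came from the sample titles. Peaks with a mean of at least 1 RPKM over the libraries of a comparison were fitted with limma 3.58.1 (R 4.3.3; lmFit and eBayes with trend) on log2(RPKM + 0.5), and p-values were adjusted by Benjamini-Hochberg across every peak fitted. This scale understates the change of weak peaks. The main H3K27Ac fit, with 2 libraries per group, took its spread wholly from the trend across peaks. Some other settings gave each peak's own spread some weight. Their prior degrees of freedom were 2.82 without the level filter, 10.9 scaled to reads in peaks and 13.6 centred on the median. Single values were compared by exact two-sided permutation in scipy 1.17.1. Counting intervals (95%, exact, reads pooled by group) and the 3-read floor cover counting error only. Tested on simulated data, the fit missed most changed peaks of the smaller size simulated in both marks. It also missed most of the larger size for H3K18La but not for H3K27Ac. The simulation changed few peaks, up and down alike, unlike the general rise here, so these miss rates need not hold for the real fits. A peak that did not pass is still not shown to be unchanged. Deviations of libraries with equal numbers were barely correlated (0.0076 to 0.031), so numbers were not treated as pairs. The replicates closest to each other, H3K18La 2 and 3 at 5 mM, still differed by more than counting noise (chi-square p = 1.22e-05).

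Named peaks were each gene's strongest promoter and strongest other peak, peaks that passed a test, and the 2 promoters most like the strongest. The rule took 3 such promoters, and 1 of them and 1 marker gene are not reported here. The Dlat and Pdk2 non-coding starts and the weaker Pdk2 intron peak were described to account for every member. Members and lists were chosen with earlier results of these data known. Of 32058 transcripts shared with a GRCm38 annotation (GENCODE M21), 99.7% had the same coordinates, so GRCm38 sequence was used for CpG.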

Additional observations from a re-analysis of the deposited data

How the results depend on the processing

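Member peaks called numbered 7 for H3K18La and 10 for H3K27Ac, where the whole table had 24539 and 24698. Scaled to reads in peaks or centred on the median, both counts were 0, where the whole table gave 0 and 0 when scaled and 1040 and 1144 when centred. Without the level filter they were 4 and 0 (18390 and 0 in the whole table, the latter with 31013 peaks at an unadjusted p under 0.05 in limma). With voom on recovered reads they were 11 and 10, the 7 and 10 first called among them (29676 and 25420). With replicates 2 and 3 at 5 mM averaged the H3K18La count was 7 (24408). Leaving out 1 library gave 4 to 6 for H3K18La, the lowest without replicate 3 at 25 mM, and 0 to 12 for H3K27Ac, 0 without either replicate at 25 mM. The whole table ran from 15592 to 24366 and from 10 to 38643 in the same fits. The fit with a replicate block called 8 and 2 (23918 and 7897), and nothing in the labels says that equal numbers are pairs. The interaction count was 0 under every alternative run, without a block or with it (0), and with 1 library left out (0 to 0). The ratio of summed signal fell to 1.07 and 1.29 scaled to reads in peaks, and with 1 library left out it ran from 2.61 to 3.28 for H3K18La and from 2.55 to 3.81 for H3K27Ac. With 1 library left out the difference in promoter balance ran from -1.37 to -0.88 for H3K18La and from 0.11 to 0.97 for H3K27Ac, and as a mean log2 over peaks it was -0.68 and 0.40.

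Signs turned in peaks that had not been called, and in 1 that had. Scaled to reads in peaks, H3K18La differences were -0.42 (Pdhb promoter), -0.66 (Pdk1) and -0.42 (Pdp1), and H3K27Ac differences were -0.43 (Mpc2 intron), -0.31 and -0.0285 (Pdhb intergenic, the second called before), -0.15 (Dlat non-coding start) and -0.56 (Pdk1). Centred on the median they were -0.15, -0.40 and -0.22 for the 3 H3K18La promoters and -0.12 for Pdk1 in H3K27Ac. The non-coding Pdk2 start turned to 0.0664 with voom and ran from -0.47 to 0.42 with 1 library left out (0.42 without replicate 1 at 5 mM, 0.0861 without replicate 2 at 25 mM). Pseudocounts of 0.1 and 1 turned none. The few reads per library limit H3K18La at single peaks.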
